A study of Arabidopsis thaliana with 12 samples.

Results

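The genes described here are PSAN and LHB1B2, a photosystem I subunit and a light-harvesting antenna protein of Arabidopsis thaliana. They were taken by name, as the probes whose only gene in the array's annotation table is PSAN (locus AT5G64040) or LHB1B2 (locus AT2G34420). This gave 2 of the 3439 probes, 1 for each gene. The series holds arrays of total RNA from wild-type plants of ecotype Columbia 0, with 6 samples taken at 2 weeks of age and 6 at 4 weeks. No transgene, treatment or mutant enters the comparison, and age is the factor that separates the groups. The labels name neither the organ sampled nor the growth conditions. Whether separate plants stand behind the 6 samples of each age is also not stated. The p-values therefore measure the spread between these samples, which may be technical.

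Photosystem I is the chlorophyll-protein complex of the thylakoid membrane that uses light to move electrons from plastocyanin to ferredoxin. PSAN encodes subunit N, a small nuclear-encoded protein on the lumen side of the complex that has a part in its reaction with plastocyanin. LHB1B2 encodes an LHCB1 protein, a chlorophyll a/b-binding protein of the trimeric antenna LHCII. LHCII feeds light energy mainly to photosystem II, and a mobile share of it moves to photosystem I in state transitions. LHB1B2 is thus an antenna gene of LHCII and not a member of the LHCA family that forms the fixed antenna of photosystem I. Both proteins are made in the cytosol and imported into the chloroplast.

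The array gives a narrow view of these complexes. Of 34 loci listed for photosystem I, its LHCA antenna and the LHCB antenna, 2 had a probe of their own, the genes described here. That is 1 of 13 photosystem I loci, 0 of 6 LHCA loci and 1 of 15 LHCB loci. A further probe, 1 in all, is annotated with several genes that include a locus on these lists, and is not used here. The LHCB1 genes are near-identical copies of each other, and LHB1B1 stands next to LHB1B2 in the order of RefSeq genes (assembly TAIR10.1). Whether the LHB1B2 probe also binds transcripts of its relatives was not tested, so its values are those of a probe named for 1 gene. Of 24 marker loci for roots, flowers and seeds, 0 had a probe of their own, and the organ could not be checked from the data.

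The deposited intensities are linear and run from 0 to 100 over the 12 arrays. Array medians lay between 0.0946 and 0.116 at 2 weeks and between 0.39 and 0.445 at 4 weeks, and between 421 and 694 probes of a sample stood at 0. Because the arrays differ in this way, each gene is described on the deposited scale, after quantile normalization and by its rank among all probes of its array. A rank from the brightest, with 1 the brightest of 3439, is the same under any factor per array. It orders probes by brightness, which also depends on the probe, and is not an order of transcript abundance. A quantile normalized intensity is the value that all arrays are given at the same rank, so samples with the same rank share it.

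PSAN was brighter at 2 weeks than at 4 weeks in every sample. Its deposited intensities at 2 weeks were 12.9, 12.7, 11.0, 15.0, 17.7 and 10.7 in samples 1 to 6. At 4 weeks they were 2.295, 2.52, 2.32, 3.01, 2.59 and 3.19. The dimmest 2-week sample, number 6, stood well above the brightest 4-week sample, also number 6, and the ages did not overlap. The 2-week mean was 13.3 ± 2.66 (SD, n = 6), with a coefficient of variation of 19.9%, and the 4-week mean was 2.66 ± 0.367, with one of 13.8%.

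LHB1B2 showed the same order of the ages at a brighter level. Its deposited intensities at 2 weeks were 47.6, 56.3, 55.6, 55.8, 32.5 and 34.7 in samples 1 to 6, and at 4 weeks 11.5, 14.2, 14.7, 15.3, 9.06 and 12.4. Samples 5 and 6 were low at 2 weeks, sample 5 was lowest at both ages, and the ages did not overlap. The mean fell from 47.1 ± 10.9 (SD, n = 6) to 12.9 ± 2.36. The highest value of either gene, 56.3, lay below the highest deposited value of any probe, 100 after rounding.

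**Figure D1:**
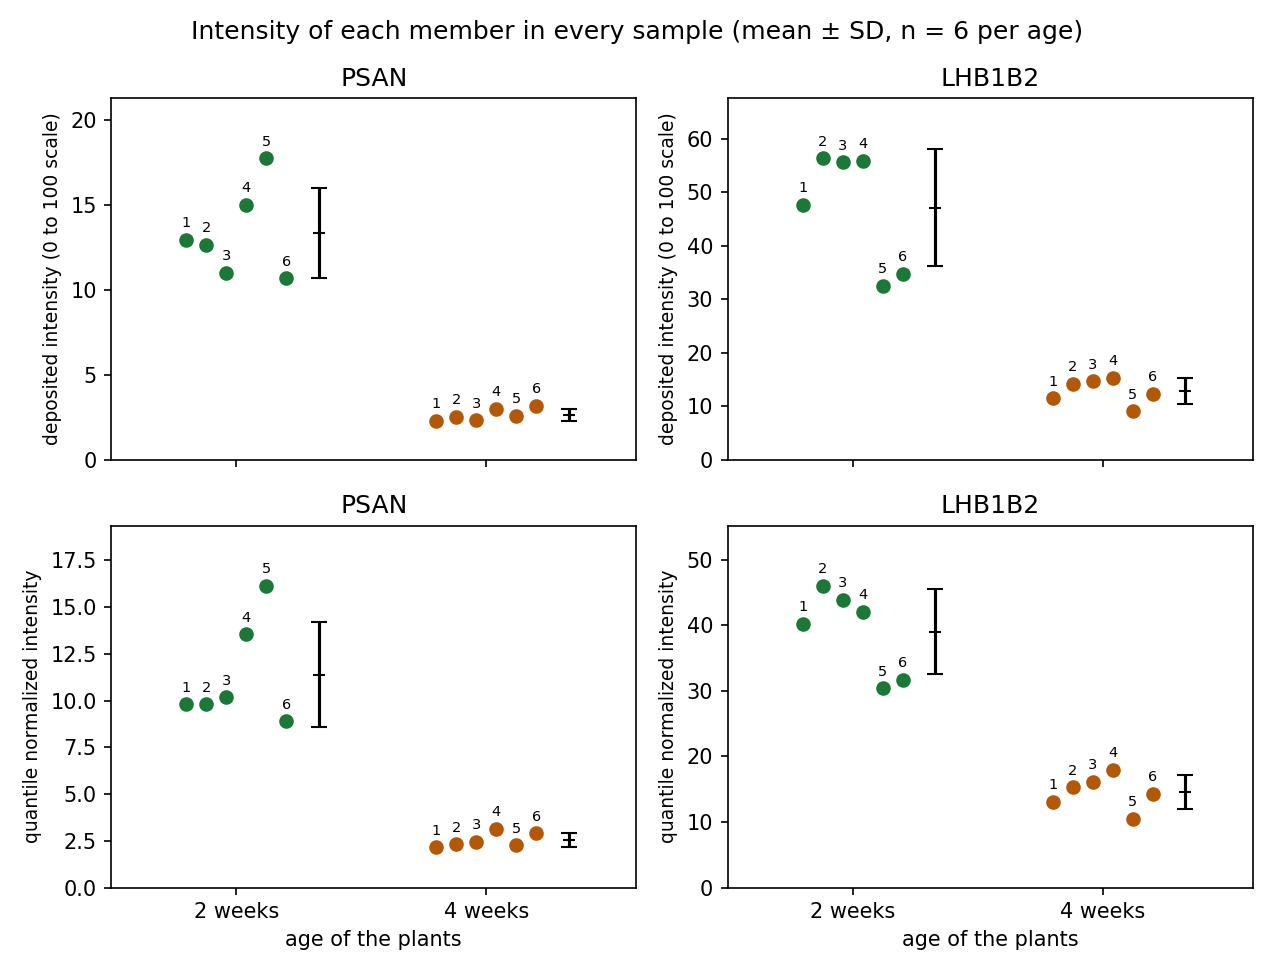
Deposited intensity (top) and quantile normalized intensity (bottom) of PSAN and LHB1B2 in each sample, with points numbered by sample and bars giving mean ± SD (n = 6 per age). All 2-week samples lie above all 4-week samples for both genes, with deposited values of 10.7 to 17.7 against 2.295 to 3.19 for PSAN and 32.5 to 56.3 against 9.06 to 15.3 for LHB1B2.

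After quantile normalization PSAN lay between 8.90 and 16.1 at 2 weeks and between 2.17 and 3.14 at 4 weeks, and LHB1B2 between 30.4 and 46.0 and between 10.5 and 18.0. Changes were tested in limma over 2961 probes and genes that lay above a floor, the 1st percentile of positive normalized values, on at least 6 of the 12 arrays. P-values were adjusted over all of them by Benjamini-Hochberg, with 0.05 as the threshold. PSAN fell by 2.15 on the log2 scale (95% confidence interval -2.51 to -1.78, limma adjusted p = 2.22e-07). LHB1B2 fell by 1.43 (95% confidence interval -1.77 to -1.08, limma adjusted p = 5.6e-06). Both of the 2 genes were called lower at 4 weeks, a call that 31.1% of all tested probes received, and 23.7% of them were lower at 4 weeks with no overlap of the ages. A fall at least as large as that of LHB1B2 was called for 15.2% of them, and one at least as large as that of PSAN for 8.14%. In these bulk samples, fewer cells that express a gene and less of its RNA per cell cannot be told apart.

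The size of the change depended on how the arrays were brought to one scale, but its direction and call did not, under the scalings tried. In the deposited values PSAN fell by 2.32 and LHB1B2 fell by 1.86, while the median of all tested probes moved by 1.82 in the other direction. In those values 11.0% of the probes were called lower, both genes among them, and 75.7% higher. With arrays centred on their median, PSAN fell by 4.02 and LHB1B2 fell by 3.56, beside 31.1% of the probes called lower. With arrays centred on their 75th percentile, the log2 changes were -3.60 and -3.14, beside 23.4% called lower. With adjacent sample numbers averaged, 3 against 3, both were called (limma adjusted p = 0.000282 and 0.00286), beside 25.5% called lower. Less the median change of all tested probes, PSAN stood at -2.24 after quantile normalization and at -4.14 in the deposited values. For LHB1B2 these values were -1.52 and -3.68.

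Both genes moved down the order of probes within their arrays. Since a quantile normalized value is set by the rank, this is the normalized fall given as ranks and not a separate observation. PSAN held ranks 44, 44, 43, 34, 29 and 47 in the 2-week samples 1 to 6, and ranks 150, 140, 132, 105, 143 and 112 in the 4-week samples. It went from a mean rank of 40.2 ± 7.03 (SD, n = 6) to 130.3 ± 18.0, and lost between 65 and 114 places within a sample number. Every 4-week sample ranked it lower than every 2-week sample.

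LHB1B2 held ranks 14, 11, 12, 13, 18 and 17 at 2 weeks, and ranks 35, 30, 29, 27, 42 and 32 at 4 weeks. It lost between 14 and 24 places within a sample number, and again the ages did not overlap. Samples 5 and 6 gave its lowest ranks at 2 weeks, and samples 5 and 1 at 4 weeks.

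**Figure D2:**
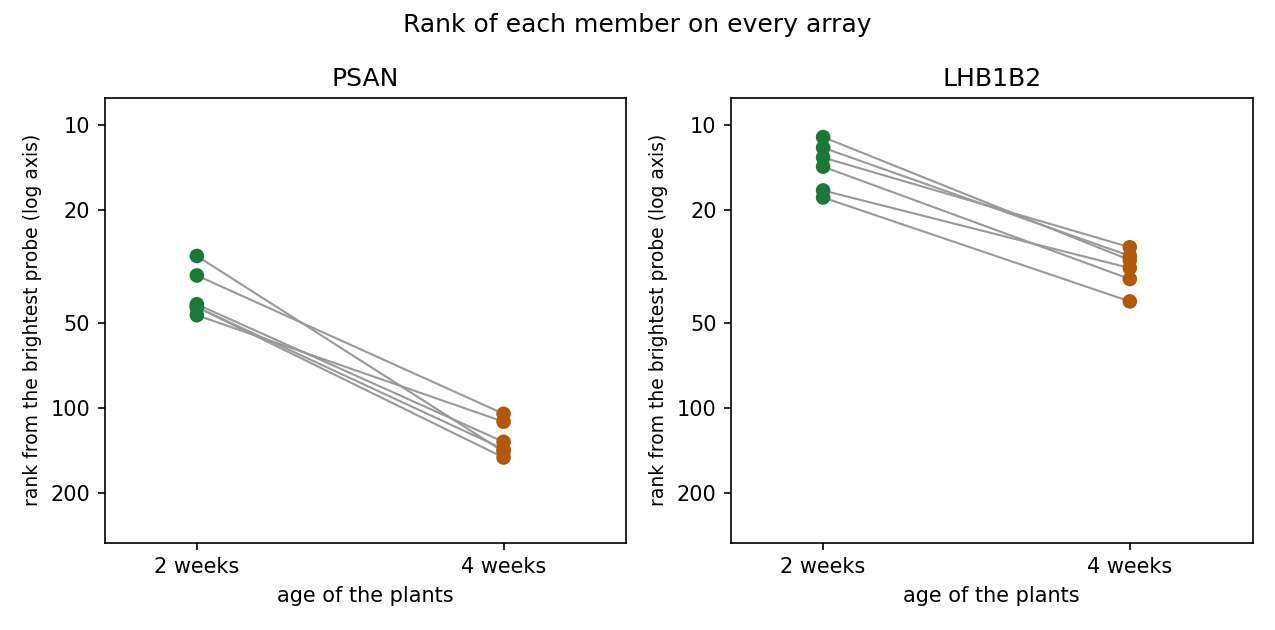
Rank of PSAN and LHB1B2 among the 3439 probes of each array, brightest at the top on a log axis, with a line joining the 2-week and 4-week samples of the same number. PSAN goes from ranks 29 to 47 down to 105 to 150, LHB1B2 from 11 to 18 down to 27 to 42, and all 12 lines slope down.

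As a percentile of the probes, PSAN went from 98.8 to 96.2 and LHB1B2 from 99.6 to 99.1. The exact permutation test, two-sided and over the 12 samples, gave p = 0.00216 for each, the smallest that 6 against 6 samples can give, and an adjusted p of 0.00441 over all 3439 probes. By the same rule 34.6% of all probes were called lower in rank, and 28.4% had ages that did not overlap in that direction. With adjacent sample numbers averaged the exact p was 0.1 for both, the smallest that 3 against 3 can give.

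The probes that passed the 2 genes can be counted. On all 6 arrays of an age, 27 probes were brighter than PSAN at 2 weeks and 90 at 4 weeks, and the 27 were still brighter at 4 weeks. A further 55 probes were dimmer than PSAN on each 2-week array and brighter on each 4-week array, and limma called all 55 higher at 4 weeks. For LHB1B2 the brighter probes went from 7 to 25, with the 7 still among them, and 11 probes passed it, of which 10 were called higher. No probe went the other way on all arrays for either gene, a count of 0. These counts use the contrast of the ages on the same arrays, and follow in part from the falls themselves. The calls of higher also follow in part from how the passing probes were picked. Among all tested probes 33.6% were called higher.

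Both genes held a smaller share of the summed intensity of their array at 4 weeks. For PSAN it was between 0.363% and 0.609% at 2 weeks and between 0.0689% and 0.0945% at 4 weeks, a ratio of the means of 5.70. LHB1B2 held between 1.12% and 1.98% at 2 weeks and between 0.274% and 0.479% at 4 weeks, a ratio of 4.15. The exact two-sided permutation p was 0.00216 for both, and this measure was added after the data were seen.

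**Figure D3:**
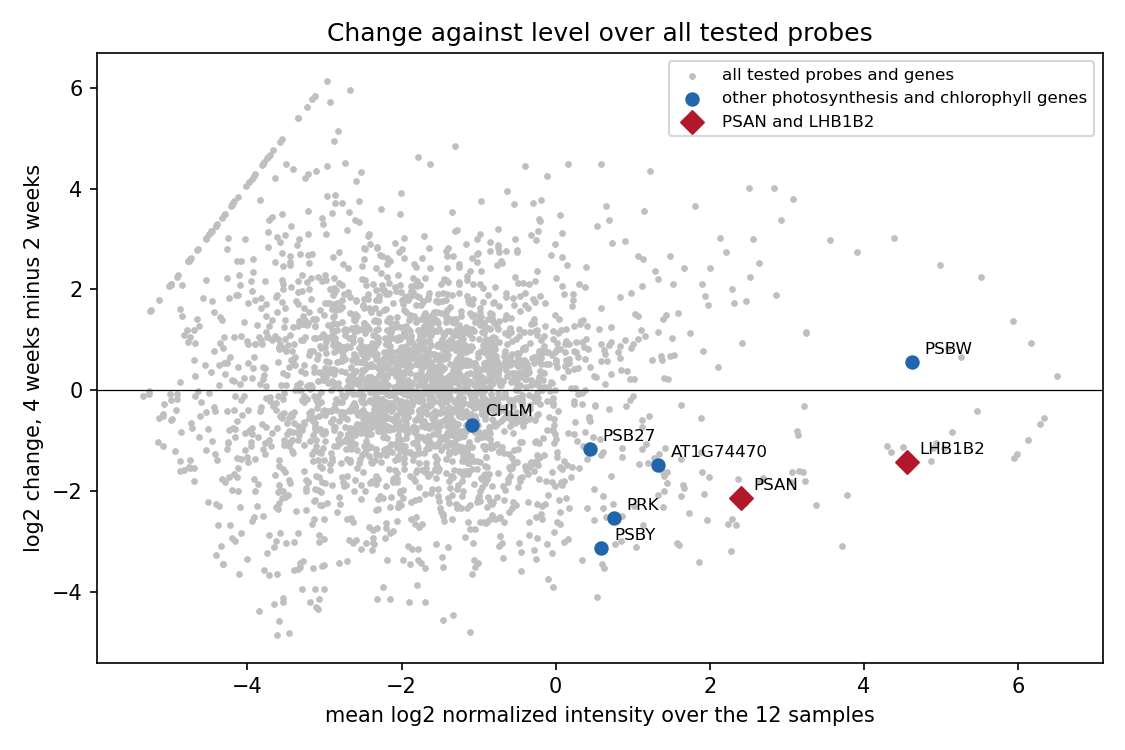
Log2 change from 2 to 4 weeks against mean log2 normalized intensity for 2961 tested probes and genes (grey), with PSAN and LHB1B2 as diamonds and the other photosynthesis and chlorophyll genes as blue points. Both members lie at the bright end and below 0, at -2.15 and -1.43, and other bright probes lie on both sides of 0.

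By mean normalized level LHB1B2 stood in place 20 and PSAN in place 54 of the 2961. Among the 30 brightest probes, which include LHB1B2, 56.7% were called lower and 30.0% higher, with a median log2 change of -0.75. In the next 118, which include PSAN, 45.8% were called lower and 45.8% higher, with a median of 0.06. The fall of PSAN is therefore set against a band that was even in both directions, and that of LHB1B2 against one in which most probes fell.

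The 2 genes did not fall by the same amount after normalization. The log2 ratio of LHB1B2 to PSAN within an array was between 0.91 and 2.23 at 2 weeks and between 2.21 and 2.73 at 4 weeks. It was higher at 4 weeks by 0.72 on average (exact two-sided permutation p = 0.00433), so that PSAN fell further. The ratio rose for each of the 6 sample numbers, by between 0.47 and 1.298. In the deposited values, where a factor per array cannot touch the ratio, the mean rise was 0.46 and did not pass (exact permutation p = 0.0801). With the samples paired by number it was a rise in 6 of 6 pairs there, by between 0.25 and 0.93. Exact sign flips gave p = 0.0312, the smallest that 6 pairs can give, although adjacent numbers deviated together and the pairs need not be independent. This paired test in the deposited values was not planned and was added after the data were seen. Sample 5 at 2 weeks had the lowest ratio on both scales, 0.91 and 0.87, and without it the mean rise after normalization was 0.54. With adjacent numbers averaged the exact permutation p was 0.1.

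**Figure D4:**
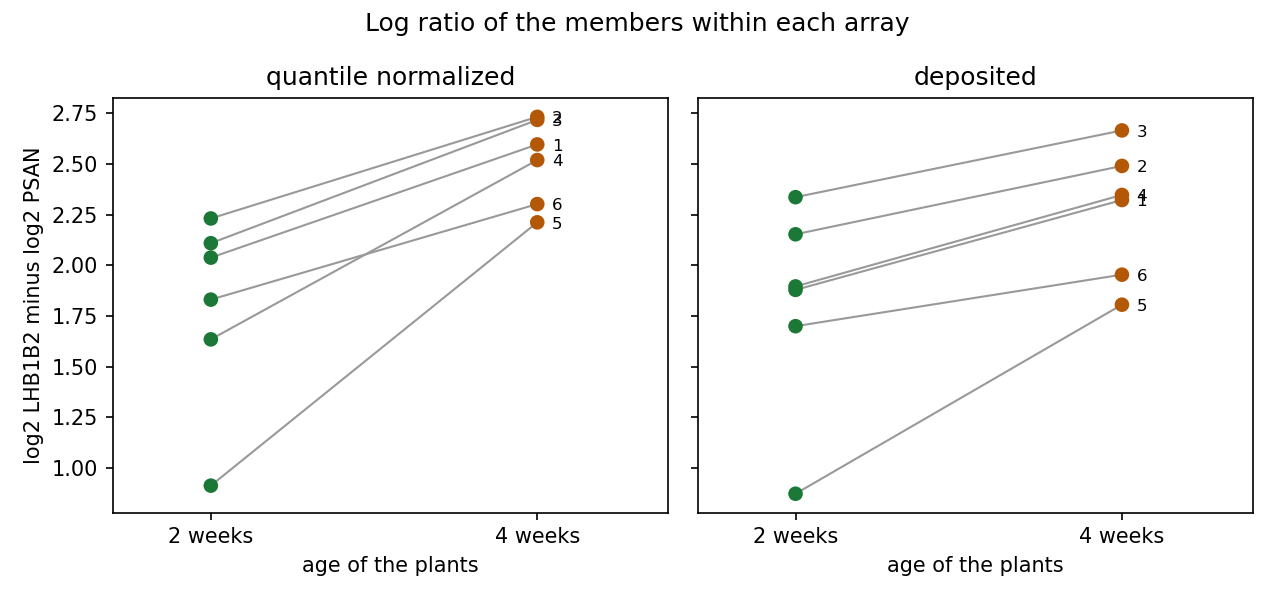
Log2 ratio of LHB1B2 to PSAN within each array after quantile normalization (left) and in the deposited values (right), with lines joining samples of the same number. All 6 lines rise on both sides, from 0.91 to 2.23 up to 2.21 to 2.73 on the left, and sample 5 at 2 weeks is the lowest point on each.

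Within an age the samples in which the 2 genes were high or low matched only in part, and more at 4 weeks than at 2 weeks. PSAN was highest at 2 weeks in samples 5 and 4, whereas LHB1B2 was lowest there in samples 5 and 6. At 4 weeks both genes had their highest normalized value in sample 4. Samples 1 and 5 were the 2 lowest for both genes there, with LHB1B2 lowest in sample 5 and PSAN in sample 1. The log2 deviations from the age means of the 2 genes had a Pearson r of 0.05 over the 12 samples. This r pools the ages and does not describe either age alone. It is given as a description since samples of adjacent numbers deviated together over all genes. Without samples 5 and 6 of both ages PSAN fell by 2.11 and LHB1B2 fell by 1.47.

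Other genes of photosynthesis and chlorophyll synthesis were reached by few probes. Of 108 loci on these lists 9 had a probe of their own, and 8 passed the filter on dim probes. In limma 6 of the 8 were lower at 4 weeks, 0 were higher and 2 did not pass, beside 31.1% of all tested probes called lower and 33.6% called higher. Leaving out PSAN and LHB1B2, 4 of the other 6 were lower and 0 higher, and at an unadjusted p below 0.05 the counts were 5 and 0, beside 32.6% and 35.2% of all tested probes. With sample number as a block, 5 of the 6 were lower and 1 higher, beside 33.3% and 35.2% of all tested probes. With adjacent numbers averaged, 4 of the 6 were lower and 0 higher, beside 25.5% and 25.4%. In the deposited values 3 were lower and 1 higher, beside 11.0% and 75.7%. After quantile normalization the median log2 change of the 6 was -1.33, against 0.10 for all tested probes. In the deposited values these medians were -0.974 and 1.825.

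PRK, the enzyme that makes the carbon dioxide acceptor of the Calvin cycle, went from percentile 97.5 ± 0.182 (SD, n = 6) of its arrays at 2 weeks to 82.3 ± 2.36 at 4 weeks. AT1G74470, the reductase that makes the phytol side chain of chlorophyll, went from percentile 97.6 ± 0.335 to 93.0 ± 1.71. CHLM, the methyltransferase of magnesium protoporphyrin, went from 78.2 ± 3.66 to 62.9 ± 4.12. CHLM was called lower after normalization, with a log2 change of -0.68, and higher in the deposited values, at 0.77.

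The small photosystem II proteins were more uneven. PSBY went from percentile 97.5 ± 1.19 (SD, n = 6) to 69.5 ± 29.6, with an exact permutation p of 0.00216 and an adjusted p of 0.00441 over all probes. It was called lower in limma, at a log2 change of -3.13 (limma adjusted p = 0.000729). PSB27, an assembly protein, stood at 94.6 ± 2.62 at 2 weeks and at 82.2 ± 14.2 at 4 weeks, with an exact permutation p of 0.0455 and an adjusted p of 0.069 over all probes. PSBW, a small subunit of the same photosystem, stood at 99.3 ± 0.154 and 99.5 ± 0.217, at an adjusted p of 0.167 in the same exact test. PSBW did not pass in limma either, at a log2 change of 0.56. With sample number as a block it was called a rise (limma adjusted p = 0.00709), and PSB27 a fall (limma adjusted p = 0.00151). With adjacent numbers averaged neither was called (limma adjusted p = 0.29 for PSBW and 0.208 for PSB27). Under median centring PSBW was called a fall, at -1.82. SBPASE, a Calvin cycle phosphatase, was listed at 0 in 6 of 6 samples at 4 weeks and in 3 of 6 at 2 weeks, where its highest deposited intensity was 0.0232, and it did not pass the filter.

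**Figure D5:**
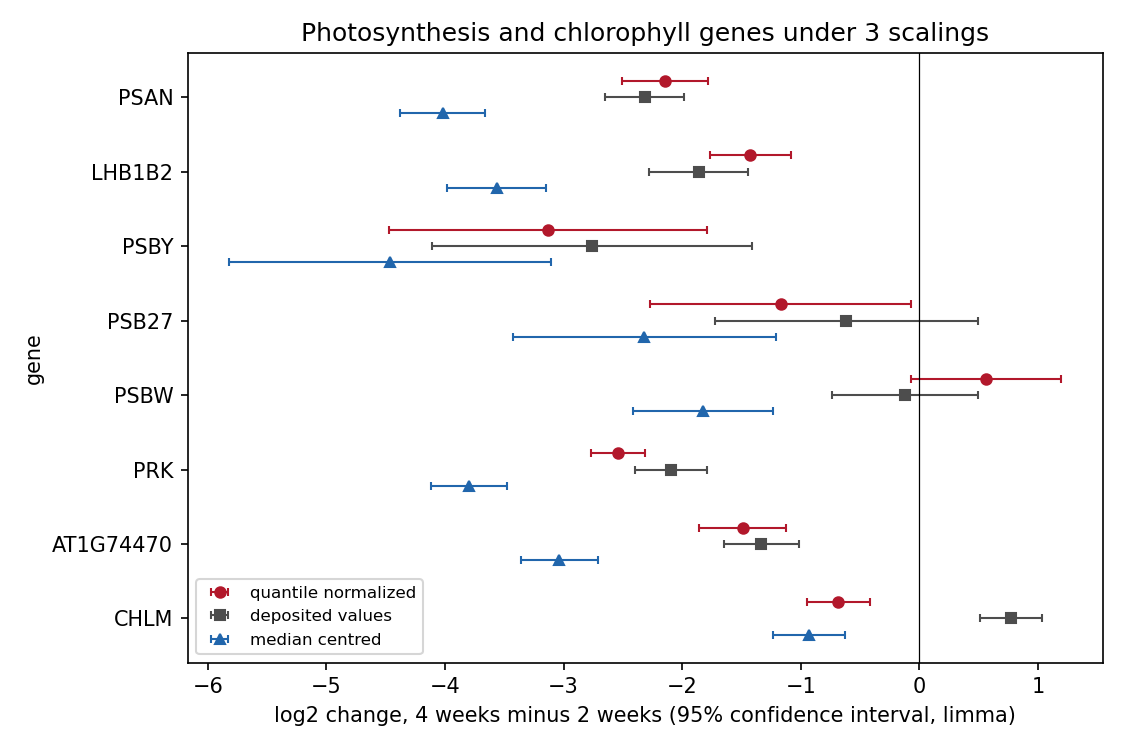
Log2 change from 2 to 4 weeks with its 95% confidence interval from limma for the 8 tested photosynthesis and chlorophyll genes, after quantile normalization (circles), in the deposited values (squares) and with arrays centred on their median (triangles). PSAN and LHB1B2 lie below 0 on each scale, with centred values of -4.02 and -3.56, whereas PSBW and CHLM change side with the scaling.

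Among genes with a probe of their own, the order near the top changed around the 2 genes. At 2 weeks 6 of the 692 such probes had a higher mean percentile than PSAN and 1 a higher one than LHB1B2, and at 4 weeks 24 and 4. The 1 gene above LHB1B2 at 2 weeks, AT5G38360, was brighter on 5 of 6 arrays and itself fell by 1.15. It was also the next above at 4 weeks, there on 6 of 6 arrays. Next below LHB1B2 were AT3G26630 at 2 weeks, on 0 of 6 arrays brighter, and AT2G27290 at 4 weeks, brighter on 3 of 6. AT2G27290 rose by 1.88, and its ranks at 4 weeks, 28 to 38, overlapped those of LHB1B2, 27 to 42. A difference in rank between the 2 was not tested.

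The neighbours of PSAN at 2 weeks were AT5G50350, brighter on 6 of 6 arrays, and AT3G06570, brighter on 0 of 6. The first fell by 1.61 and the second fell by 1.73. At 4 weeks its neighbours were AILP1 and AT4G18180, each brighter on 4 of 6 arrays. Both rose, by 2.11 and 0.997 on the log2 scale. Their ranks there, 116 to 141 and 82 to 180, overlapped those of PSAN, 105 to 150, and a difference was not tested.

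The patterns most like those of the 2 genes over the 12 samples were sought by Pearson's r of normalized log2 intensity, among 453 other genes measured above the floor on all arrays. For PSAN they were AT3G12930 (r = 0.98), AT3G47650 (0.98), AT1G64430 (0.98), AT1G32730 (0.97) and AT1G69910 (0.97). PRK came in place 13 and LHB1B2 in place 50, at r = 0.97 and 0.93. For LHB1B2 the leading genes were AT2G46630 (r = 0.98), AT5G39410 (0.97), AT3G26630 (0.97), CCL (0.97) and AT2G21530 (0.97), with AT1G74470 in place 17 and PSAN in place 40. All of these genes fell between the ages, and r over the 12 samples includes that shared change.

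Taken within the ages, the likeness was lower. Deviations from the age means had an r of 0.17 to 0.56 between PSAN and its 5 leading genes, and of 0.69 to 0.87 between LHB1B2 and its own, the highest with CCL. PSBW, whose change between the ages did not pass, had an r of 0.79 with LHB1B2 within the ages and of -0.26 over the 12 samples. The r between PRK and LHB1B2 was -0.46 within the ages and 0.93 over the 12. These correlations are descriptions over samples of which adjacent numbers deviated together.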

How the data were processed

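Each sample has 1 column of intensities for 3439 probes, deposited by the authors on a linear scale of 0 to 100, as the values show. The authors' scanning, background correction and scaling are not given in the sources used here. The number of arrays limits the precision. All 12 columns were matched to samples by accession, and 0 others were present. Names came from the annotation table of the array, in which 692 have 1 gene, 870 several and 1877 are unlisted.

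Arrays were quantile normalized, a floor was set at the 1st percentile of positive values (0.0152), and log2 was taken. Probes above this floor on at least 6 arrays were tested with limma 3.58.1 in R 4.3.3 (lmFit and eBayes, two-sided, 4 minus 2 weeks, Benjamini-Hochberg over all tested, threshold 0.05). Ranks, shares and ratios were tested by exact permutation over samples (Python 3.11.15). Scripts were tested on simulated data.

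Members and gene lists were chosen with earlier results of these data known. Named genes are the members, all list genes reached, the 5 most alike for each member and its neighbours in rank.

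Titles number the samples 1 to 6 at each age. Deviations from the age means correlated across genes between samples of the same number, at r = 0.16 to 0.44. This was above 0.1 in each of 6 pairs. For every sample, of either age, the best match at the other age was the sample of the same number. The main limma fits and exact permutation tests did not use the pairs. Tests that do, with sample number as a block or by sign flips, are alternatives. Whether PSBW, PSB27 and the ratio of the 2 genes in the deposited values passed depended on this choice, as given above. Neighbouring numbers (1 with 2, 3 with 4, 5 with 6) shared deviations too, at r of 0.41 to 0.50 in the 4-week samples and 0.01 to 0.31 in the 2-week ones, so fits with them averaged are given.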

Additional observations from a re-analysis of the deposited data

Results flagged for a closer look

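Dixon's test for a single outlying sample was run on 26 groups of 6 values, those of PSAN, LHB1B2, their ratio and the other tested photosynthesis genes. It marked 1 group, where chance gives about 1 in 20. PRK had its lowest log2 normalized intensity at 4 weeks in sample 3, -0.78 against -0.54 in the next sample. No sample of PSAN or LHB1B2 was marked.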

How the results depend on the processing

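PSAN and LHB1B2 were lower at 4 weeks and called by limma under all 11 other settings, with log2 changes of -4.02 to -1.79 and of -3.56 to -1.36. These settings were 3 other scalings, another floor, a pseudocount of 1, other filters on dim probes, trend and robust eBayes, sample number as a block, adjacent numbers averaged, and samples 5 and 6 left out, the last chosen after seeing the data. The replicate block changed no call for the 2 genes, with changes of -2.15 and -1.43. Leaving out 1 sample at a time gave -2.21 to -2.04 for PSAN and -1.49 to -1.34 for LHB1B2, and losses of rank of -2.77 to -2.51 and of -0.56 to -0.48 percentile points. With adjacent numbers averaged the rank differences, -2.62 and -0.53, and the change of ratio, 0.72, had an exact permutation p of 0.1 by the construction of 3 against 3. The change of ratio did not pass in the deposited values, at 0.46 (exact permutation p = 0.0801), and without 1 sample it ran from 0.54 to 0.81. The count of photosynthesis genes called higher went from 0 to 1 in the deposited values and with the replicate block. It did so too without 4-week sample 5 or 6, and without samples 5 and 6 of both ages. The count called lower ran from 5 to 8. The cause was not tested.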
